A study of Homo sapiens with 12 samples.

Results

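The genes described here encode 10 transcription factors of the luminal and epithelial breast lineage: FOXA1, GATA3, the AP-2 factors TFAP2A, TFAP2B and TFAP2C, the ETS factors SPDEF, ELF3, ELF5 and EHF, and the grainyhead factor GRHL2. They were taken by symbol from the 23228 genes of the deposited tables, and 9 of the 10 passed the filter on low counts, as did 14541 genes in all. The list was drawn up with results of these data known: FOXA1 had been noted to go up with induction of the receptor and down with estradiol. FOXA1 values are therefore given as a description without a test in every comparison.

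FOXA1 is a pioneer factor that binds closed chromatin and opens it for estrogen receptors, and GATA3 works with it to keep mammary cells luminal. AP-2 factors act in the same regulatory circuit, and the epithelium-specific ETS factors set secretory and alveolar programs, with ELF5 known for the milk-producing alveolar lineage. GRHL2 maintains the epithelial state, E-cadherin included. In estrogen receptor-positive breast cancer several of these factors bind beside estrogen receptor alpha. The cells studied here lack that setting, since triple negative tumors are defined by the absence of estrogen receptor alpha, progesterone receptor and HER2 amplification.

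RNA was sequenced from MDA-MB-468, an established triple negative breast cancer line, carrying ERβ1 (full-length estrogen receptor beta, gene ESR2) under the control of doxycycline. Each of 4 groups held 3 libraries. Uninduced vehicle cells received no doxycycline and then 0.1% DMSO for 4 hours, and uninduced E2 cells received no doxycycline and then 10 nM 17β-estradiol (E2) for 4 hours. Induced vehicle and induced E2 cells received 50 ng/mL doxycycline for 48 hours before the same vehicle or E2 exposure. All 4 groups carry the construct and were grown without phenol red in charcoal-stripped serum. Whether the line is a clone or a pool, and the promoter of the construct, are not stated in the labels. No group gave doxycycline to cells without the construct, so effects of the drug and of the receptor cannot be told apart.

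Libraries held 7.89 M to 33.3 M expected counts, and every tested lineage factor had at least 50 counts in each library. ESR2 stood at 1.30 ± 0.22 CPM (counts scaled to library size; SD, n = 3) in uninduced vehicle, 1.61 ± 0.57 in uninduced E2, 121 ± 11.7 in induced vehicle and 104 ± 10.2 CPM in induced E2 cells. The line carried both luminal and basal keratins: in uninduced vehicle cells KRT8 stood at 2409 ± 92.4 TPM and KRT5 at 819 ± 49.3 TPM, EPCAM at 448 ± 2.40 TPM, ESR1 at 1.57 ± 0.47 TPM and PGR at 0.00939 ± 0.00822 TPM. TPM is the authors' fraction of transcripts multiplied by 1e+06, a scale per length on which different genes can be compared. The epithelial label was therefore borne out by its markers, with basal keratins beside the luminal ones. Of 15 markers of fibroblast, blood and endothelial cells, DCN and LUM were among 3 at 0 in all 12 libraries, 5 passed the filter and none of those 5 was called in any comparison (with the replicate number as a block, 1 was called for E2 in induced cells and 2 for doxycycline with E2). The summed level of the 15 was 32.0 to 34.4 CPM in uninduced and 33.9 to 36.8 CPM in induced libraries. COL1A1 was the highest of them, at up to 26.3 CPM in a library, followed by CD68 at up to 8.93 and PDGFRA at up to 3.77 CPM. In bulk RNA, fewer cells that express a gene and less RNA per cell cannot be told apart. The labels call the samples triplicates without naming separate cultures, so each p-value reflects the spread among these libraries alone, which may be technical.

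The promoters of the members that the data bear on are shown first, from RefSeq on GRCh38.p14. RefSeq windows were found for 8 of the 10 genes (not for TFAP2C and GRHL2), 15 windows in all, and each was searched over the 250 bases before a transcription start. The windows printed are that of FOXA1 and, for 4 members that changed, 1 window each, picked after the search because it held the estrogen arm letters given below; GATA3 had 2 more such windows, and EHF had 1 other window, which held none of the letters searched. They are trimmed to the bases outside annotated exons of the gene, 5′ to 3′ on the gene's strand. Capitals mark every match, on either strand, to the letters GGTCA (1 arm of an estrogen response element), TGTTTAC (forkhead factors such as FOXA1), AGATAA (bound by factors of the GATA family) or GCCNNNGGC (AP-2). ELF5 lies at chr11:34511829-34511974 on the minus strand, EHF at chr11:34632316-34632463 on the plus strand, TFAP2A at chr6:10419660-10419909 on the minus strand, GATA3 at chr10:8054438-8054652 on the plus strand and FOXA1 at chr14:37595349-37595499 on the minus strand.
ELF5: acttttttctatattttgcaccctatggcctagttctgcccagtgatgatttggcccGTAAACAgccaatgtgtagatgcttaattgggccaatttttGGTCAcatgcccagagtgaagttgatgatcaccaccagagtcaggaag
EHF: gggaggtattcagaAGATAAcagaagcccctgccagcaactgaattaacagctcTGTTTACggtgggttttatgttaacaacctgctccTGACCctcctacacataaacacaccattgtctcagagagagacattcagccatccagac
TFAP2A: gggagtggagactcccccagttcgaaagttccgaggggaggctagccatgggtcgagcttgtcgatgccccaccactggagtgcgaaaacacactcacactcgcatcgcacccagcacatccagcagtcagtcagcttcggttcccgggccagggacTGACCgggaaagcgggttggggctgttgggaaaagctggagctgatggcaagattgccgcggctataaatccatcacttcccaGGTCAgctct
GATA3: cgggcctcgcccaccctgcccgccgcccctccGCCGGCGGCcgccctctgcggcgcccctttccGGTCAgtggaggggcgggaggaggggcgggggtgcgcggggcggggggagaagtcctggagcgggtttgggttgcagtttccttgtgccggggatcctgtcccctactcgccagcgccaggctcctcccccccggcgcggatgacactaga
FOXA1: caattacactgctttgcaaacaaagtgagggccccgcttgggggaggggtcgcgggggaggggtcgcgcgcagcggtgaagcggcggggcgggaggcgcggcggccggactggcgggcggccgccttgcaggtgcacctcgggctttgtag

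The printed ELF5 and EHF windows each held 1 forkhead match, in opposite directions relative to their gene, and these were 2 of the 15 member windows, beside 2.98% of the 35116 promoters searched. The EHF window also held the GATA letters, found in 1 of the 15 member windows and in 9.17% of all promoters. The AP-2 letters lay in 3 of the 15 member windows, a share near the 19.8% of all promoters with a match. All 3 were among the 6 windows of GATA3, including the window printed. The estrogen arm letters lay in 6 of the 15 windows and in 32.6% of all promoters, and the printed TFAP2A window held 2 of them. The full palindrome GGTCANNNTGACC was in none of the 15 windows and in 0.0399% of all promoters. The ETS letters CCGGAAGT (3.42% of all promoters) and the grainyhead letters AACCGGTT (0.117%) were in none of the member windows, and the AP-1 letters TGANTCA (6.57%) were in 1 GATA3 window. No searched letters were found in the FOXA1 window. A match describes the letters only; binding was not measured. ELF5 and EHF are neighbors on chromosome 11 and are transcribed away from each other. Their starts lie 113 or 121 kb apart, depending on the EHF window, with 0 other RefSeq protein-coding genes between them.

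Across the 12 libraries the 10 genes covered a wide range of levels. In uninduced vehicle cells EHF stood highest at 283 ± 14 TPM (SD, n = 3), followed by ELF3 at 234 ± 9.61, SPDEF at 113 ± 11, GRHL2 at 65.7 ± 1.27, TFAP2C at 59.1 ± 1.31, TFAP2A at 49 ± 2.08, GATA3 at 35.7 ± 1, FOXA1 at 26.1 ± 1.91 and ELF5 at 7.12 ± 1.36 TPM. No neighbors in that order overlapped between their 3 libraries, and the same order without overlap held in uninduced E2 cells. In induced vehicle cells TFAP2C stood above GRHL2, and GATA3 and FOXA1 overlapped. In induced E2 cells TFAP2C, at 121 ± 7.01 TPM, overlapped SPDEF at 124 ± 3.63, and GATA3, at 46.1 ± 2.07, overlapped GRHL2 at 45.7 ± 0.741 TPM. The order therefore differed between groups mainly in the places of TFAP2C and GRHL2. TFAP2B, the third AP-2 factor of the list, had 0 counts in 11 libraries and 1 count in induced E2 replicate 3, so it was not tested. A count of 0 allows up to 3 counts in a library, which is 0.0896 to 0.375 CPM at these depths and covers counting error only.

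**Figure D1:**
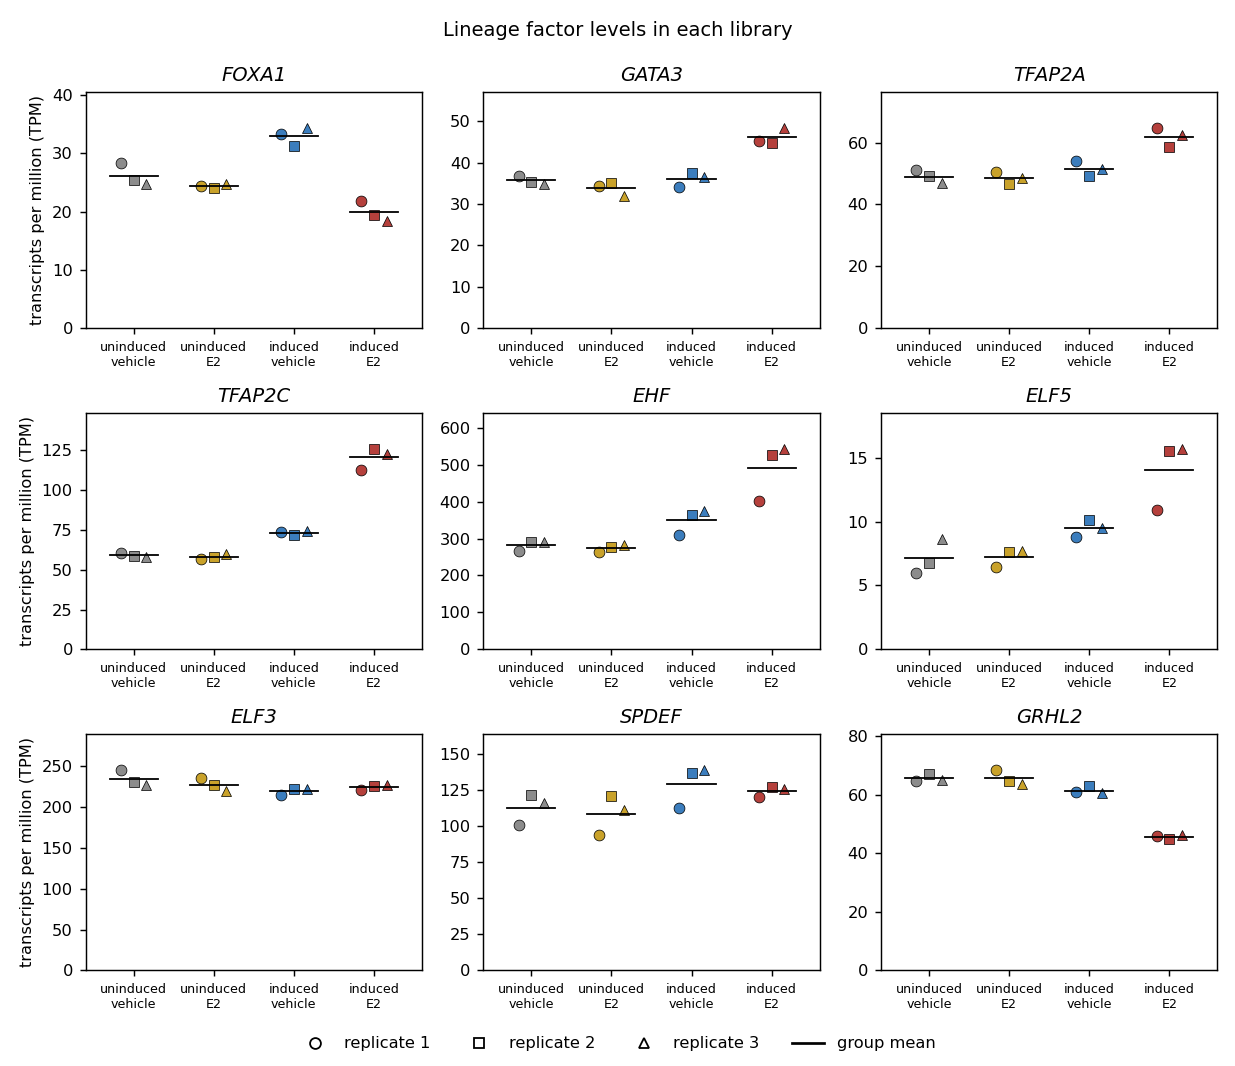
Level of each of the 9 detected lineage factors in every library, in TPM on a linear axis from 0, by treatment group; points are libraries, shapes are replicate numbers and bars are group means. TFAP2C runs from 58.2 to 60.6 TPM in uninduced vehicle libraries to 113 to 126 TPM in induced E2 libraries, while GRHL2 and FOXA1 have their lowest libraries in the induced E2 group.

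E2 in uninduced cells, where ESR2 was low, gave 0 called lineage factors of 8 tested, FOXA1 left out, beside 0% of all tested genes, with edgeR at an adjusted p under 0.05. None of the 8 had an unadjusted p under 0.05, and DESeq2 and limma-voom also called 0 of them. The largest difference by size among them was that of GATA3, at −0.06 ± 0.05 (log2 fold change ± SE; 95% interval −0.17 to 0.06). The widest interval belonged to ELF5, at 0.00 ± 0.16 (−0.33 to 0.34), the member with the fewest reads. Changes inside these intervals were not detectable with these samples.

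FOXA1 stood at 28.3, 25.4 and 24.7 TPM in uninduced vehicle libraries and at 24.4, 24.1 and 24.7 TPM in uninduced E2 libraries (replicates 1, 2 and 3). With doxycycline it was 33.3, 31.3 and 34.4 TPM in vehicle libraries and 21.8, 19.4 and 18.4 TPM in E2 libraries. Every induced vehicle library lay above all 6 uninduced libraries, and every induced E2 library lay below them. As a description of the pattern for which it was noted, the log2 difference was −0.07 ± 0.07 (SE) for E2 in uninduced cells, 0.37 ± 0.06 for doxycycline without E2, −0.70 ± 0.06 for E2 in induced cells and −0.26 ± 0.07 for doxycycline with E2. By replicate number the E2 difference in induced cells was −0.56, −0.66 and −0.87, and the doxycycline difference without E2 was 0.26, 0.32 and 0.49. Doxycycline without E2 and E2 in induced cells share the induced vehicle libraries, so these values are not independent of each other.

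GATA3 rose with E2 in induced cells. Its libraries held 36.8, 35.3 and 34.9 TPM in uninduced vehicle, 34.4, 35 and 32 in uninduced E2, 34, 37.5 and 36.6 in induced vehicle, and 45.2, 44.6 and 48.4 TPM in induced E2 cells. The induced E2 libraries lay above the other 9, which overlapped. E2 in induced cells raised GATA3 by 0.38 ± 0.05 on the log2 scale (1.30-fold; edgeR adjusted p = 8.78e-05; higher in 3 of 3 same-numbered pairs). Doxycycline without E2 gave 0.04 ± 0.05 (adjusted p = 0.773; 95% interval −0.07 to 0.16). Within each library the ratio of FOXA1 to GATA3 was 0.732 ± 0.0324 in uninduced vehicle, 0.723 ± 0.0433 in uninduced E2, 0.918 ± 0.0754 in induced vehicle and 0.433 ± 0.0517 in induced E2 cells. That ratio is a description, since FOXA1 was chosen for its levels. Reads of the antisense gene GATA3-AS1, 0 to 14 counts a library under its older symbol, could not be told from GATA3 because the library kit does not mark strand.

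The AP-2 factors TFAP2A and TFAP2C bind the same GC-rich letters, and TFAP2C is known as a regulator of estrogen receptor alpha in luminal cells. TFAP2C stood at 60.6, 58.5 and 58.2 TPM in uninduced vehicle, 56.8, 58.1 and 59.8 in uninduced E2, 73.8, 71.6 and 74.4 in induced vehicle and 113, 126 and 123 TPM in induced E2 libraries. The induced vehicle libraries lay above the uninduced ones and below the induced E2 ones, with no overlap. It rose by 0.33 ± 0.04 with doxycycline alone (1.26-fold; adjusted p = 0.000522), a call that was lost without replicate number 3 (adjusted p = 0.0840), and by 0.76 ± 0.04 with E2 in induced cells (1.69-fold; adjusted p = 1.77e-08). Across induction in the presence of E2 it rose 2.13-fold (adjusted p = 1.67e-10), the largest such fold among the tested members. TFAP2A held 51.1, 49.1 and 46.9 TPM in uninduced vehicle, 50.6, 46.6 and 48.4 in uninduced E2, 54, 49.2 and 51.6 in induced vehicle and 64.8, 58.5 and 62.5 TPM in induced E2 libraries. Only the induced E2 libraries stood apart from the rest. Its rise with E2 in induced cells was 0.30 ± 0.05 (1.23-fold; adjusted p = 0.000592), and doxycycline alone gave 0.10 ± 0.05 (adjusted p = 0.386). The ratio of TFAP2C to TFAP2A within a library was 1.21 ± 0.0303, 1.20 ± 0.0696, 1.42 ± 0.0475 and 1.96 ± 0.206 in uninduced vehicle and uninduced E2, then induced vehicle and induced E2 cells. TFAP2A-AS1, which is antisense to TFAP2A, had 4.2 to 36.3 counts a library that strand could not separate.

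**Figure D2:**
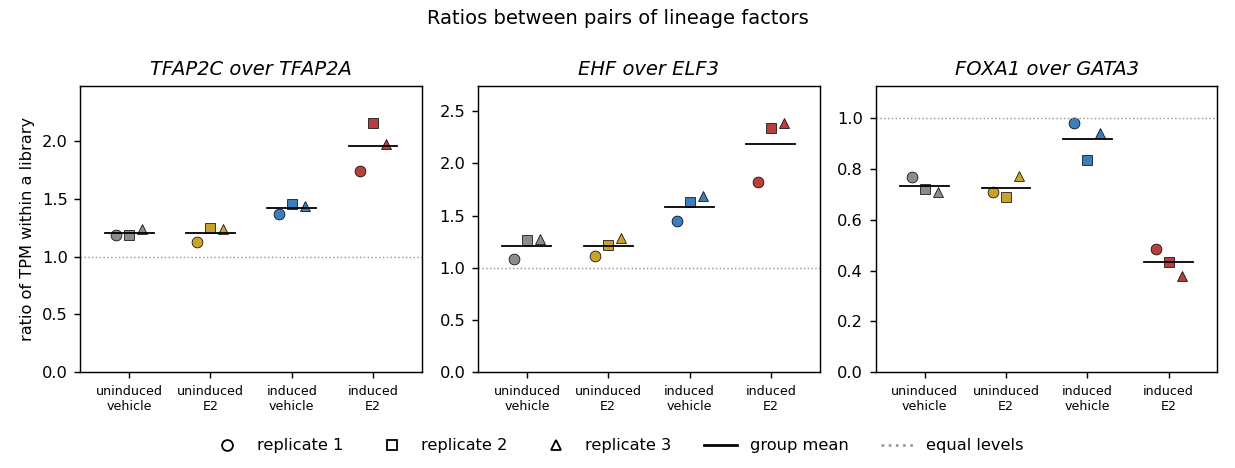
Ratio of the levels of 2 lineage factors within each library (linear axis from 0; points are libraries, bars are group means, and the dotted line marks equal levels). TFAP2C over TFAP2A goes from a mean of 1.21 in uninduced vehicle to 1.96 in induced E2 cells, EHF over ELF3 from 1.21 to 2.18, and FOXA1 over GATA3 from 0.732 to 0.433 with 0.918 in induced vehicle cells.

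Of the 4 ETS factors, EHF and ELF5 rose with E2 in induced cells and ELF3 and SPDEF were not called. EHF, an epithelial ETS factor, held 266, 290 and 291 TPM in uninduced vehicle, 263, 278 and 283 in uninduced E2, 310, 363 and 374 in induced vehicle and 402, 527 and 543 TPM in induced E2 libraries. Groups with doxycycline did not overlap the others, and in all 4 groups the library numbered 1 was the lowest. It rose by 0.53 ± 0.09 with E2 in induced cells (1.44-fold; adjusted p = 0.00113), a call lost without replicate number 2 (adjusted p = 0.0522). Doxycycline alone gave 0.32 ± 0.09 (adjusted p = 0.0864), which passed the test with the replicate number as a block (adjusted p = 2.36e-05). ELF5 held 5.96, 6.78 and 8.62 TPM in uninduced vehicle, 6.45, 7.59 and 7.73 in uninduced E2, 8.81, 10.1 and 9.54 in induced vehicle and 10.9, 15.5 and 15.7 TPM in induced E2 libraries. These groups also did not overlap between induced vehicle and induced E2, though induced vehicle lay close above uninduced vehicle. In CPM those last 2 groups overlapped, with 8.94 CPM in induced vehicle replicate 1 and 9.13 CPM in uninduced vehicle replicate 3. ELF5 rose by 0.62 ± 0.14 with E2 in induced cells (1.53-fold; adjusted p = 0.00719), and the call was lost without replicate number 2 (adjusted p = 0.132) or 3 (adjusted p = 0.134). Doxycycline alone gave 0.38 ± 0.16 (adjusted p = 0.255, and 0.0102 with the replicate block).

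The neighbors EHF and ELF5, whose promoters are printed above, differed in level by a ratio of 40.4 ± 5.86 in uninduced vehicle, 38 ± 2.41 in uninduced E2, 36.8 ± 2.10 in induced vehicle and 35.1 ± 1.40 in induced E2 libraries. The ranges of that ratio overlapped between all 4 groups. ELF3, the most similar in level to EHF, is an epithelial ETS factor active in simple epithelia. Its libraries held 245, 230 and 227 TPM in uninduced vehicle, 235, 227 and 219 in uninduced E2, 215, 222 and 222 in induced vehicle and 221, 225 and 227 TPM in induced E2 cells. The E2 difference in induced cells was 0.07 ± 0.04 (adjusted p = 0.255; 95% interval −0.01 to 0.14), so a change as large as that of EHF lay outside its interval. The ratio of EHF to ELF3 was 1.21 ± 0.107, 1.21 ± 0.0857, 1.59 ± 0.126 and 2.18 ± 0.316 in uninduced vehicle and uninduced E2, then induced vehicle and induced E2 cells. SPDEF, an ETS factor of secretory epithelia, held 101, 122 and 116 TPM in uninduced vehicle, 93.7, 121 and 111 in uninduced E2, 113, 137 and 139 in induced vehicle and 120, 127 and 126 TPM in induced E2 libraries, and the groups overlapped. In CPM the induced E2 libraries, at 107, 112 and 111, lay above the uninduced E2 ones, at 79.9, 106 and 95.8 CPM. E2 in induced cells gave −0.03 ± 0.10 (adjusted p = 0.895; 95% interval −0.24 to 0.18). Doxycycline gave 0.21 ± 0.10 without E2 (adjusted p = 0.337) and 0.23 ± 0.10 with E2 (adjusted p = 0.0983), and both passed with the replicate block (adjusted p = 0.00623 and 0.000565).

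GRHL2 was the tested member that fell. Its libraries held 64.9, 67.2 and 65 TPM in uninduced vehicle, 68.5, 64.7 and 63.8 in uninduced E2, 60.9, 63.1 and 60.5 in induced vehicle and 46, 44.9 and 46.3 TPM in induced E2 cells. All 3 induced E2 libraries lay below the other 9. With E2 in induced cells it fell by 0.39 on the log2 scale (SE 0.04; the level fell by 23.9%; adjusted p = 2.64e-06; lower in 3 of 3 same-numbered pairs). Doxycycline alone gave −0.08 ± 0.04 (adjusted p = 0.325). TFAP2C over GRHL2 was 0.900 ± 0.0319 in uninduced vehicle, 0.888 ± 0.0542 in uninduced E2, 1.19 ± 0.0505 in induced vehicle and 2.64 ± 0.178 in induced E2 libraries.

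Counted together, 6 of the 8 tested members other than FOXA1 were called for E2 in induced cells, 5 higher and 1 lower, beside 16.5% of all 14541 genes (9.85% higher and 6.61% lower). Their median log2 change was 0.34, and that of all genes tested was −0.00497. For doxycycline without E2, 1 of 8 was called (higher), beside 3.81% of all genes (2.44% higher and 1.37% lower), and 4 of 8 with the replicate block (TFAP2C, EHF, ELF5 and SPDEF); the count was 0 without replicate number 3. The median there was 0.15 and that of all genes −0.00117. For doxycycline with E2, 6 of 8 were called (5 higher, 1 lower), beside 28% of all genes (15% higher and 13% lower), with a median of 0.44 and −0.0106 over all genes. Over the whole table that balance turned with the scaling, from 2184 genes higher and 1894 lower to 1799 higher and 2679 lower under upper quartile scaling, where no called lineage factor changed direction. For doxycycline with E2 the changes were 0.99 ± 0.14 for ELF5 (adjusted p = 0.000103), 0.88 ± 0.09 for EHF (adjusted p = 6.51e-06), 0.49 ± 0.05 for GATA3 (adjusted p = 4.51e-06) and 0.39 ± 0.05 for TFAP2A (adjusted p = 2.63e-05), and GRHL2 fell by 0.48 (SE 0.04; adjusted p = 1.46e-07). GATA3, TFAP2A, TFAP2C, EHF and ELF5 were the 5 that rose and GRHL2 the 1 that fell in both comparisons of induced E2 cells. Both comparisons use the same induced E2 libraries, so they are not independent of each other. The summed level of the 10 genes was 872 ± 12.5 TPM in uninduced vehicle, 849 ± 14.8 in uninduced E2, 963 ± 52.8 in induced vehicle and 1147 ± 90.4 TPM in induced E2 libraries, and EHF made up the largest part of it.

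**Figure D3:**
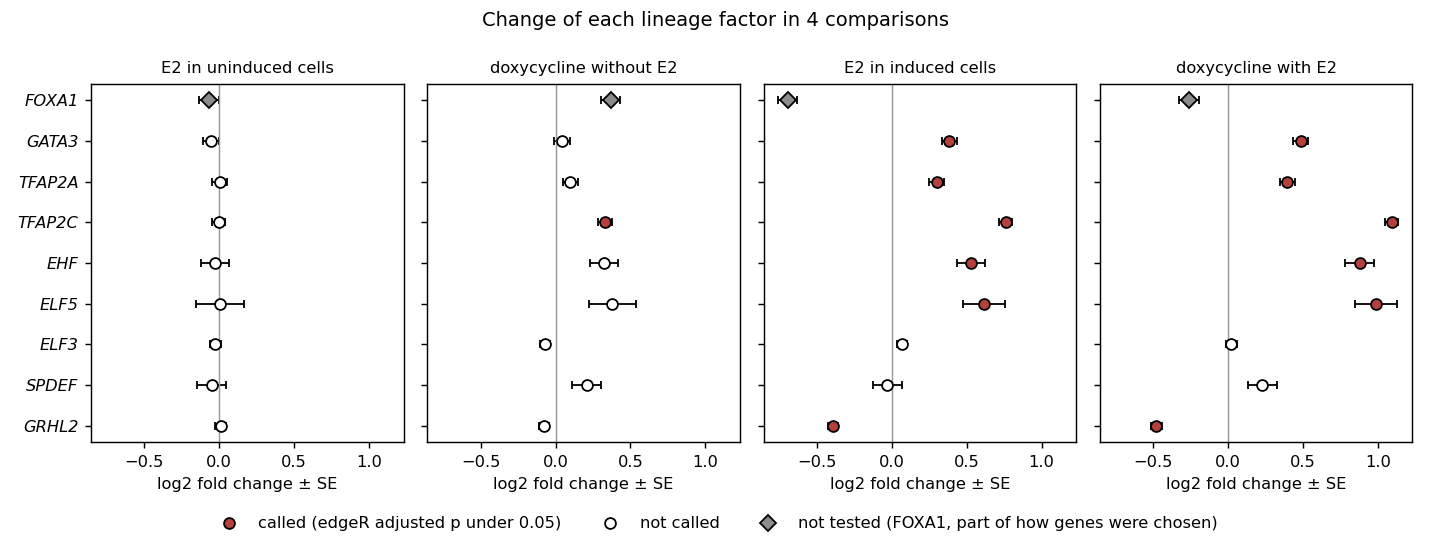
Log2 fold change (points) with its standard error (bars) of each lineage factor in 4 comparisons; red points passed edgeR at an adjusted p under 0.05, open points did not, and grey diamonds mark FOXA1 values that were not tested. Open points near 0 fill the panel of E2 in uninduced cells, while in induced cells E2 gives 5 red points to the right of 0 and GRHL2 to the left at −0.39.

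Whether the E2 change depended on induction was tested by the interaction, in which the response of uninduced cells to E2 is subtracted from the response of induced cells. It was called for 5 of 8 members (4 higher, 1 lower), beside 8.47% of all genes (5.66% higher and 2.81% lower), with a median of 0.37 and −0.00673 over all genes. TFAP2C had the largest value, 0.76 ± 0.06 (adjusted p = 2.35e-06), followed by EHF at 0.56 ± 0.13 (adjusted p = 0.0175), GATA3 at 0.44 ± 0.07 (adjusted p = 0.00127) and TFAP2A at 0.30 ± 0.07 (adjusted p = 0.0172). GRHL2 stood at −0.40 ± 0.05 (adjusted p = 0.000133). ELF5 was not called, at 0.61 ± 0.21 (adjusted p = 0.108), and passed with the replicate block (adjusted p = 0.00351). Without replicate number 2 the count was 3, as EHF (adjusted p = 0.258) and TFAP2A (0.185) were lost. Without number 3 it was 2, as GATA3 (adjusted p = 0.0862) was lost with EHF (0.218) and TFAP2A (0.216). Single libraries also decided 2 of these calls: EHF was lost without induced E2 replicate 2 or 3 (adjusted p = 0.0524 and 0.0519) and TFAP2A without induced vehicle replicate 2 or uninduced E2 replicate 2 (adjusted p = 0.0511 and 0.0508). ELF3 at 0.09 ± 0.05 (adjusted p = 0.357) and SPDEF at 0.02 ± 0.14 (adjusted p = 0.972) were not called.

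Cofactors and relatives of the AP-2 factors changed in both directions. Of 9 tested, 2 were higher and 1 lower with E2 in induced cells, beside 16.5% of all genes called (9.85% higher and 6.61% lower), with a list median of −0.02. CITED4, a coactivator of AP-2 and of CBP and p300, rose by 1.29 ± 0.14 (adjusted p = 1.28e-05), from 75.4 ± 11.6 to 185 ± 20.5 CPM. Its relative CITED2 fell by 0.41 (SE 0.06; adjusted p = 0.000102), from 183 ± 15.5 to 138 ± 1.56 CPM. KCTD1, a repressor of AP-2, rose by 0.14 ± 0.04 (adjusted p = 0.0443), a call lost with DESeq2 (adjusted p = 0.103), without 4 of the 6 libraries compared when left out singly (0.0762 to 0.186), with only the groups compared, without the filter and with upper quartile scaling. With doxycycline alone 0 of the 9 were called, beside 3.81% of all genes, and 2 with the replicate block (CITED4 higher and CITED2 lower). TFAP2E stood at 3.49 ± 1.04 TPM in uninduced vehicle cells and TFAP2D at 0 in all groups.

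Among relatives and cofactors of FOXA1 and GATA3, 1 of 10 tested was higher and 1 lower with E2 in induced cells (median −0.05), a share near the 16.5% called among all genes. LDB1, an adaptor of GATA complexes, rose by 0.56 ± 0.05 (adjusted p = 2.00e-06). TRPS1, a repressor with a GATA-type zinc finger, fell by 0.35 (SE 0.05; adjusted p = 6.70e-05), from 243 ± 6.56 to 191 ± 3.92 CPM. With doxycycline alone TRPS1 was the 1 called of 10, beside 3.81% of all genes, at 0.23 ± 0.05 (adjusted p = 0.0103, and 0.0610 or 0.230 without replicate number 2 or 3). GATA2 and GATA6 stood at 3.86 ± 0.811 and 10.4 ± 1.28 TPM in uninduced vehicle cells, and FOXA2 at 0 and FOXA3 at 0.0565 ± 0.0637 TPM.

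Other ETS genes were called in both directions as well, 2 higher and 4 lower of 18 tested with E2 in induced cells (median −0.05), beside the 16.5% of all genes, and 0 of 18 with doxycycline alone, beside 3.81%. ELF1 rose by 0.38 ± 0.05 (adjusted p = 3.88e-05). ETS1 fell by 0.51 (SE 0.07; adjusted p = 0.000156), ETV1 fell by 0.66 (SE 0.11; adjusted p = 0.000563) and ETV6 fell by 0.29 (SE 0.05; adjusted p = 0.0006). Of the 5 grainyhead relatives, GRHL1 rose by 0.38 ± 0.04 (adjusted p = 2.09e-05) while GRHL2 fell, and went from 48.9 ± 0.877 to 62.1 ± 2.10 TPM. GRHL3 fell by 0.39 (SE 0.11; adjusted p = 0.0258), a call lost without replicate number 2 or 3 (adjusted p = 0.244 and 0.372) and without any 1 of the 4 induced libraries numbered 2 or 3 (adjusted p up to 0.135). With doxycycline alone TFCP2L1 was lower at −0.41 ± 0.09 (adjusted p = 0.0218, and 0.318 and 0.0957 without number 2 or 3).

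The epithelial genes on which these factors are known to act were called in part. With E2 in induced cells 4 of 24 tested were higher and 3 lower (median 0.02), and 3 higher and 1 lower without replicate number 3; among all genes 16.5% were called. CDH1, which encodes E-cadherin, rose by 0.91 ± 0.04 (adjusted p = 1.52e-09), from 77.8 ± 0.709 to 143 ± 6.12 TPM. The epithelial transcription factor gene OVOL2 rose by 0.75 ± 0.10 (adjusted p = 8.43e-05). ERBB3, a receptor tyrosine kinase listed among both epithelial and luminal genes, fell by 0.34 (SE 0.04; adjusted p = 6.99e-05). Doxycycline alone gave 2 higher of 24, where 3.81% of all genes were called. CDH1 was 1 of the 2, at 0.23 ± 0.04 (adjusted p = 0.00343), and neither was called without replicate number 2 or 3.

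Genes of luminal cells were called 7 higher and 3 lower of 24 tested with E2 in induced cells (median 0.08) and 8 higher and 1 lower with doxycycline alone (median 0.14), where 16.5% and 3.81% of all genes were called. With E2 in induced cells CA12, a carbonic anhydrase, rose by 1.01 ± 0.07 (adjusted p = 1.76e-07), the secretory regulator XBP1 by 0.85 ± 0.05 (adjusted p = 1.13e-08), MYB by 0.68 ± 0.05 (adjusted p = 4.10e-07) and MLPH by 0.40 ± 0.05 (adjusted p = 5.36e-05). With doxycycline alone CA12 rose by 2.57 ± 0.09, XBP1 by 0.62 ± 0.05, MYB by 0.71 ± 0.06 and SCGB2A2, mammaglobin, by 3.19 ± 0.31 (adjusted p = 9.54e-10, 2.22e-06, 4.10e-06 and 2.59e-05). SCGB2A2 went from 0.458 ± 0.183 to 4.90 ± 1.34 CPM. Its size of change rests on a start near the floor, which reached 0.375 CPM in uninduced vehicle replicate 1. Without replicate number 3 the doxycycline count was 4 higher and 0 lower. The luminal genes named here all rose, while others of the list went down. PROM1 stood at 158 ± 8.62 TPM in uninduced vehicle, 133 ± 17.7 in induced vehicle and 94.5 ± 11.6 TPM in induced E2 cells. CLDN8 stood at 80.7 ± 3.16, 64.8 ± 1.51 and 57.1 ± 1.83 TPM in the same order.

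Basal genes were called mostly lower: 1 higher and 6 lower of 22 tested with E2 in induced cells (median −0.18), and 1 higher and 8 lower with doxycycline alone (median −0.20), where 6.61% and 1.37% of all genes were called lower. With the replicate block the E2 count was 2 higher and 11 lower, and without replicate number 3 it was 0 higher and 2 lower. ITGB4, an integrin of hemidesmosomes, fell by 0.69 (SE 0.08; adjusted p = 1.28e-05) with E2 in induced cells, and its partner ITGA6 fell by 0.23 (SE 0.04; adjusted p = 0.000559). DSC3, a desmosomal cadherin, fell by 0.52 (SE 0.09; adjusted p = 0.00116, and 0.0536 without number 3). With doxycycline alone the basal keratin genes KRT5 (−0.51 ± 0.05, adjusted p = 2.43e-05), KRT6B (−0.86 ± 0.09, adjusted p = 4.21e-05), KRT14 (−0.81 ± 0.12, adjusted p = 0.00136) and KRT16 (−0.68 ± 0.11, adjusted p = 0.0016) were lower. The calls of KRT14 and KRT16 were lost without replicate number 3 (adjusted p = 0.0897) and number 2 (adjusted p = 0.0520), and KRT6B and KRT16 share sequence with close relatives. Without number 2 or 3 the doxycycline count of basal genes was 0 higher and 3 lower.

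Of 10 tested alveolar genes, for which ELF5 is the known regulator, 1 was higher and 1 lower with E2 in induced cells (median −0.01), a share near the 16.5% called among all genes. SLC34A2, a phosphate transporter, rose by 0.76 ± 0.19 (adjusted p = 0.0122, and 0.114 and 0.151 without number 2 or 3), and XDH, a xanthine dehydrogenase of milk-secreting cells, fell by 0.47 (SE 0.15; adjusted p = 0.0429, and 0.0583 with DESeq2, 0.0885 with only the groups compared and 0.412 without number 3). The casein genes CSN1S1, CSN2 and CSN3 did not pass the filter. With doxycycline alone PRLR, the prolactin receptor, was the 1 called of 10, beside 3.81% of all genes, at 0.23 ± 0.05 (adjusted p = 0.0103, and 0.156 and 0.235 without number 2 or 3). Mesenchymal genes differed in level. In uninduced vehicle cells FN1 stood at 58.2 ± 7.15 and VIM at 11.4 ± 2.90 TPM, while ZEB1 was near its floor at 0.0905 ± 0.0485 TPM. Of 11 tested mesenchymal genes, 1 was higher and 0 lower with E2 in induced cells (median −0.05), beside 16.5% of all genes called. Without number 2 or 3 the count was 0. Doxycycline alone gave 1 higher (SPARC, 1.72 ± 0.36, adjusted p = 0.0134) and 1 lower (MMP2, −0.50 ± 0.12, adjusted p = 0.0362) of these 11, beside 3.81% of all genes called. The list median was −0.20, and neither SPARC nor MMP2 was called without number 2 or 3. The MMP2 call was also lost with DESeq2 (adjusted p = 0.0763), with only the groups compared (0.104) and without number 1 (0.0854). Single libraries ended further calls. With doxycycline alone, SPARC was lost without uninduced vehicle replicate 2 or 3 (adjusted p = 0.0966 and 0.0963) and PRLR without uninduced vehicle replicate 3 (0.0705). TFCP2L1 was lost without uninduced vehicle replicate 2 or 3 (0.112 and 0.0609) or induced vehicle replicate 1 or 2 (0.0756 and 0.0531), and MMP2 without any 1 induced vehicle library or uninduced vehicle replicate 1 or 2 (0.0808 to 0.183). SLC34A2 was lost for E2 in induced cells without induced E2 replicate 2 or 3 (0.0607 and 0.0585), and XDH was lost there when any 1 of 5 of the 6 libraries compared was left out (0.0725 to 0.181).

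**Figure D4:**
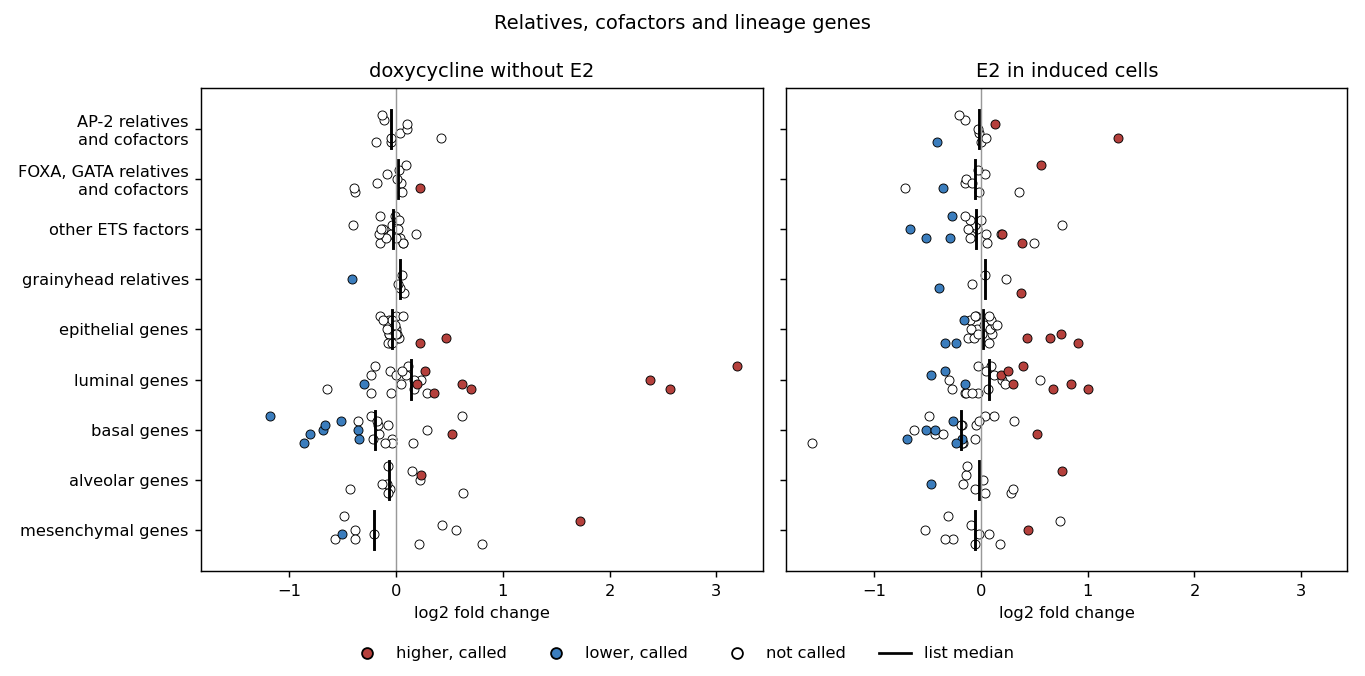
Log2 fold change of every tested gene of 9 gene lists (1 point a gene) for doxycycline without E2 and for E2 in induced cells; red and blue points passed edgeR at an adjusted p under 0.05 as higher and lower, and the black bar is the list median. The medians of basal genes (−0.20 and −0.18) and mesenchymal genes (−0.20 and −0.05) lie left of 0 in both panels, as do those of other ETS, AP-2 and alveolar genes (−0.06 to −0.01), and the luminal medians (0.14 and 0.08) lie right of 0.

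By Pearson correlation of log2 CPM over the 12 libraries, among 12375 genes compared, the genes most like FOXA1 were ENC1 (0.94), RDH10 (0.93), PLK2 (0.90), KITLG (0.90) and FAM160B1 (0.89). The 12 points fall into the 4 treatment groups and share their replicate numbers, so these coefficients describe the pattern over groups. RDH10 followed it at 84.1 ± 5.37 CPM in uninduced vehicle, 82.7 ± 5.37 in uninduced E2, 136 ± 1.93 in induced vehicle and 60.2 ± 1.53 CPM in induced E2 cells. By Spearman's coefficient the 5 genes ranked first were PDLIM5, ANKRD50, C14orf79, SLC41A2 and WDR45L, and 0 of the 5 were shared. For TFAP2C the first 3 included CYR61 and TBC1D9 (each 0.996), for TFAP2A GOT1, ZFP36 and SPRY4 (each 0.99) and for GATA3 GNAI2, PICK1 and SBNO2 (each 0.98). GRHL2 was followed by EFNA1, SPTLC2 and ARID5B (each 0.99). EHF was the third for ELF5, after HOMER2 as the second (0.97 and 0.98), and TMED10 and INSR were the second and the third for EHF (each 0.99).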

How the data were processed

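Gene expression was measured in 12 libraries of MDA-MB-468 cells with inducible ERβ1, 3 in each of 4 groups. RNA was extracted with the RNeasy Plus kit and libraries with the TruSeq Sample Preparation V2 protocol, as the labels' protocols record. The authors deposited RSEM expected counts for 23228 genes by symbol, and beside them the deposited fraction of transcripts that each gene makes up. RSEM 1.1.16, DESeq 1.7.10 and hg19 stand in the submitters' processing notes, where no aligner is given.

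After rounding, counts were fitted in edgeR 4.0.16 under R 4.3.3 (filterByExpr, at least 10 counts and a total of 15, TMM scaling, quasi-likelihood fit with 1 mean per group on all 12 libraries, 8 residual degrees of freedom, Benjamini-Hochberg adjustment over all 14541 genes within a comparison, called under 0.05). The fitted biological coefficient of variation was 5.34%, and 2.9% with the replicate number as a block. Fractions multiplied by 1e+06 gave TPM and were not tested. CPM values are TMM-scaled, log2 CPM used a prior count of 2, and intervals are at 95%. Alternatives were DESeq2 1.42.0, limma-voom (limma 3.58.1), upper quartile and RLE scaling, no filter or a stricter one, only the groups compared, the replicate number as a block, the file date as a covariate, and libraries or replicate numbers left out.

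Replicate numbers paired the samples: deviations from the group mean correlated at 0.104 to 0.464 (median 0.246) over 18 same-numbered library pairs and at −0.427 to 0.278 (median −0.220) over 36 others, across 12376 genes. Since deviations within a group sum to 0, positive same-numbered pairs pull the others below 0, so the negative median adds no separate evidence. Lane and file-name date go with the number (number 1 has the earlier date) and cannot be told apart. A block on the number left 6 residual degrees of freedom. Replicates of 1 group differed by 1.63 to 7.14 times the sampling noise (chi-square per degree of freedom), and were counted as separate samples. Pairs that held number 1 stood at 4.31 to 7.14, and pairs of numbers 2 and 3 at 1.63 to 2.65.

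The members and gene lists were chosen with earlier results of these data known. All members are named, and some genes that the rule below picks are not reported here. Of each list and comparison, up to 4 called genes with the smallest p were eligible, and likeness was ranked among genes averaging 1 or more in log2 CPM. Relatives with low levels, ESR2 and line markers are given as levels. Protein sequences and hg19 gene positions were not used here. Promoter windows come from RefSeq on GRCh38.p14, another build than the counts, and serve only as sequence.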

Additional observations from a re-analysis of the deposited data

Results flagged for a closer look

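The E2 change in induced cells differed from that in uninduced cells, by the interaction test in edgeR, for 5 of 8 tested lineage factors, beside 8.47% of all genes. It also differed for 18 of the list genes followed by name. Those list genes had been picked for small p-values in these same comparisons, so the count of 18 is no measure of the lists. Among the factors the log2 difference of changes was 0.763 for TFAP2C, 0.556 for EHF, 0.441 for GATA3, 0.296 for TFAP2A and −0.402 for GRHL2. Genes listed beside AP-2, FOXA1 and GATA3 that differed were CITED4 (1.29), CITED2 (−0.426), LDB1 (0.505) and TRPS1 (−0.311). The ETS genes ELF1 (0.402), ETS1 (−0.492), ETV1 (−0.677) and ETV6 (−0.229), and the grainyhead gene GRHL1 (0.4), differed as well. Epithelial genes with a difference were CDH1 (0.939), OVOL2 (0.709) and ERBB3 (−0.345). Luminal genes were XBP1 (0.8), CA12 (0.824), MYB (0.687) and MLPH (0.348), and basal genes were ITGB4 (−0.67) and ITGA6 (−0.196). ETV6 and ITGA6 had adjusted p-values of 0.0499 and 0.0332, the nearest to the threshold of these. The ETV6 call was lost when any 1 of 10 of the 12 libraries was left out (adjusted p = 0.0522 to 0.151), with DESeq2 (0.0702), RLE scaling (0.052) and no filter on low counts (0.0587). The ITGA6 call was lost when any 1 of 9 of the 12 libraries was left out (0.0563 to 0.0951) and without replicate number 1 (0.0526). Of the 18 list genes, 12 lost the call without replicate number 2 and 12 without number 3.

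FOXA1 moved in opposite directions with doxycycline depending on E2: the log2 difference was 0.368 without E2 and −0.26 with E2, and all 3 same-numbered pairs went up in the first and down in the second. The difference between them was not tested, since FOXA1 was chosen for this pattern.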

How the results depend on the processing

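Members' fold changes under alternatives were counted as kept if they stayed on their side of the threshold (for FOXA1, if their value stayed within 1 SD). That held for 159 of 162 for E2 in induced cells, 158 of 162 for doxycycline with E2 and 150 of 162 for doxycycline without E2. It held for 162 of 162 for E2 in uninduced cells and 192 of 207 for the interaction. None of the called values changed sign. Values called in neither fit were counted as kept whatever their sign, and some changed it. SPDEF, for example, ran from −0.115 to 0.021 for E2 in induced cells. With the replicate number as a block, lineage factors called went from 1 to 4 for doxycycline without E2, from 6 to 7 for doxycycline with E2 and from 5 to 6 for the interaction; the count for E2 in induced cells stayed at 6. The file date as a covariate also gave 4 for doxycycline without E2, and only the groups compared gave 2. Leaving out libraries or replicate numbers gave 0 to 4 there and 2 to 6 for the interaction. That fit needs all 4 groups, so only the groups compared was not run for it. The FOXA1 interaction was −0.73 without replicate number 1 and −0.49 without number 3, beside −0.63. Upper quartile scaling moved the median of all genes to at most −0.0523.

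Over the whole table, leaving out number 2 or 3 took calls from 2394 to 1026 and 990 for E2 in induced cells and from 4078 to 2156 and 2054 for doxycycline with E2. Calls went from 554 to 173 and 106 for doxycycline without E2 and from 1232 to 370 and 306 for the interaction. These fits have fewer residual degrees of freedom. Leaving out number 1 costs as many degrees of freedom, yet it gave more calls: 3391, 5064, 1082 and 2105 in the same order. The block gave 1456 for doxycycline without E2 and 2143 for the interaction. Without uninduced vehicle replicate 2 or 3 doxycycline without E2 gave 364 and 369. E2 in uninduced cells gave 0 calls, and 1 with DESeq2 or without uninduced vehicle replicate 2. Alternatives on the gene lists were chosen after seeing the data. Depth limits ELF5 most among the tested members.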
